A study of Mus musculus with 10 samples.

Results

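The angiotensin and endothelin systems were followed through 7 genes in the failing mouse heart: Agt, Ace, Agtr1a, Edn1, Ece1, Ednra and Ednrb. The genes were chosen by symbol for their place in the 2 systems, with earlier results of these data known. All 7 were among the 57185 genes with counts, and all 7 were among the 13453 genes with enough counts to be tested. The apex of the ventricles (left ventricle in the labels) gave RNA for a separate library from each of 5 MLPKO and 5 cRADΔ/Δ-MLPKO animals (MLPKO-cRADKO in the labels). MLPKO stands for a deletion of Csrp3, the gene of muscle LIM protein, in every cell, after which the heart dilates and fails. cRADΔ/Δ-MLPKO mice carry the same deletion. They have in addition lost Rrad, the gene for the calcium channel regulator RAD, in cardiomyocytes through a tamoxifen-induced MYH6-MerCreMer recombinase. In the paper, the MLPKO mice carried floxed Rrad, the form this recombinase can delete, but no recombinase, and the sequenced mice were all male. The genotypes thus differ in the recombinase too, and its part was not tested. Every mouse, controls included, received a single tamoxifen dose of 100 mg per kg at 10 weeks of age, and the labels give both 16 weeks as the age at collection and 1 month as the time since tamoxifen, which do not add up, so the interval is uncertain. A heart without the Csrp3 deletion is not part of the comparison, so each difference is between 2 kinds of MLPKO heart.

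Both systems turn a large inactive precursor into a small peptide that constricts vessels and acts on heart muscle and fibroblasts. In the angiotensin system, renin cleaves angiotensinogen (Agt), made mainly by the liver, and angiotensin-converting enzyme (Ace), which sits on endothelium, makes angiotensin II, which acts on the type 1 receptor (Agtr1a). In the endothelin system, endothelial cells make preproendothelin-1 (Edn1), endothelin-converting enzyme 1 (Ece1) releases the active peptide, and receptor A (Ednra, on muscle cells) and receptor B (Ednrb, also on endothelium) bind it.

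Before the values, the sequence next to the start of 4 of these genes is shown, since counts per gene add up transcripts from every start and the starts differ between annotations. RefSeq windows, whose table is on GRCm38.p6 and which were placed on GRCm39 by an exact match, were held for 6 of the 7 genes and for 10 starts, 2 of Ace and 4 of Ece1. Agtr1a had none. Shown first are the 250 bases before the RefSeq start that lies farthest upstream, on the strand of the gene, of the precursor Agt (chr8:125296446-125296695, minus strand), of Ace (chr11:105858524-105858773, plus strand) and of Ece1 (chr4:137589298-137589547, plus strand). Capitals mark matches to 4 motifs described after the sequences.
Agt: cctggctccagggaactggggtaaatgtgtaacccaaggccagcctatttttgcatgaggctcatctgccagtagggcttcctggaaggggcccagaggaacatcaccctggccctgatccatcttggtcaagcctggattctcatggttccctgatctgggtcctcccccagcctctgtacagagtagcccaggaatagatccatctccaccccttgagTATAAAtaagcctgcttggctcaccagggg
Ace: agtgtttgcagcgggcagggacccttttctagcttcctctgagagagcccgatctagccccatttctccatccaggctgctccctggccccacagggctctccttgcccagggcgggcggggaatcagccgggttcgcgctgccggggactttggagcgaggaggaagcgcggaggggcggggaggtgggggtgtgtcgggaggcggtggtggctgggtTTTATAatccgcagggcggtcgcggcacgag
Ece1: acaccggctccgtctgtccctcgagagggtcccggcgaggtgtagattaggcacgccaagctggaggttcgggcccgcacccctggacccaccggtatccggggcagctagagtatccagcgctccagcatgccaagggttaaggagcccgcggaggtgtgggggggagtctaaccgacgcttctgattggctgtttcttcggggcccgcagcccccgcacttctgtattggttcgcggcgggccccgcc
The 250 bases before the canonical GENCODE start are shown for the receptor Ednra (chr8:78451553-78451802, minus strand), which holds a match in that annotation.
Ednra: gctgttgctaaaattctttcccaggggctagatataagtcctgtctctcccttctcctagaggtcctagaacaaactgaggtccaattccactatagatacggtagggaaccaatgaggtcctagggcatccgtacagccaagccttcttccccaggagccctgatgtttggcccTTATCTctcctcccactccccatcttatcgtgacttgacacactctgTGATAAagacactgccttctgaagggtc

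The motifs were read on both strands. The GATA motif was any of the letters AGATAA, of the letters AGATAG, of the letters TGATAA and of the letters TGATAG. The AP-1 motif was spelled TGACTCA or, with the other middle base, TGAGTCA. The TATA motif was spelled TATAAA and the CRE motif was spelled TGACGTCA. No matches in the members overlapped. Which genes held a match depended on the annotation. Before the canonical GENCODE starts, GATA letters stood in 2 of 7 genes, Ednra among them, against 20.6% of 13416 such windows, and no member held the other 3 motifs. In the RefSeq windows, which reach from 250 bases before to 50 after the start and were searched after the GENCODE matches had been seen, GATA letters stood in 1 of the 10 member windows, that of Edn1, after its start, against 18.7% of 13178 windows. TATA letters stood in 2 of the 10, against 7.47% of windows. In Agt they began at base -30 and in Ace, read on the opposite strand, at base -31, counted from the start. AP-1 letters (3.81% of windows) and CRE letters (2.82%) were in none of the 10 member windows. A match is a description of the letters, and binding was not measured.

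The total count was 33457406 to 49965101 per mouse. In each library, 73.7% to 80.3% of the counts from 1 to 20 were even, so low counts such as those of Agt may be coarser than they look. CPM (counts scaled to equal library size) use the TMM method, and every genotype difference comes from edgeR's quasi-likelihood test, adjusted by Benjamini-Hochberg over all 13453 genes. Of these genes 369 passed an adjusted p of 0.05, or 2.74%, with 127 higher (0.944%) and 242 lower (1.80%) in cRADΔ/Δ-MLPKO. Rrad itself, deleted only in cardiomyocytes, lay at 140 to 282 CPM in MLPKO and at 135 to 202 in cRADΔ/Δ-MLPKO. Its log2 fold change was -0.38 (edgeR adjusted p = 0.29), so its RNA count over whole tissue did not separate the genotypes. At the protein level, the paper reported a loss of RAD in cRADΔ/Δ-MLPKO hearts by western blot. Which cells or which part of the gene the remaining Rrad reads come from was not tested. Csrp3, disrupted in both genotypes, was still counted, at 1009 to 3261 CPM and 691 to 1177 CPM (edgeR adjusted p = 0.0667), so its count does not check the labels. MLPKO mouse 2 stood apart from the other 9 mice, at 55.72 on a first principal component on which they lay between -24.02 and 22.52. In these bulk samples, fewer cells of a type and less RNA per cell cannot be told apart.

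None of the 7 genes passed the adjusted threshold of edgeR. At an unadjusted p under 0.05 there were 4, Agt, Ednra and Ece1 with higher and Ace with lower values, where 21.6% of all tested genes passed. DESeq2 called 2 of the 7, Ace and Ece1, where it called 10.0% of its 12917 genes, and limma-voom called 0, where it called 2.53%. Values were higher in 5 and lower in 2, and 52.1% of all tested genes were higher. The median log2 fold change of the 7 was 0.16, against 0.011 over all tested genes, and its median size was 0.26 against 0.14. Only Ece1 had genotypes that did not overlap, which was true of 6.62% of tested genes.

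**Figure D1:**
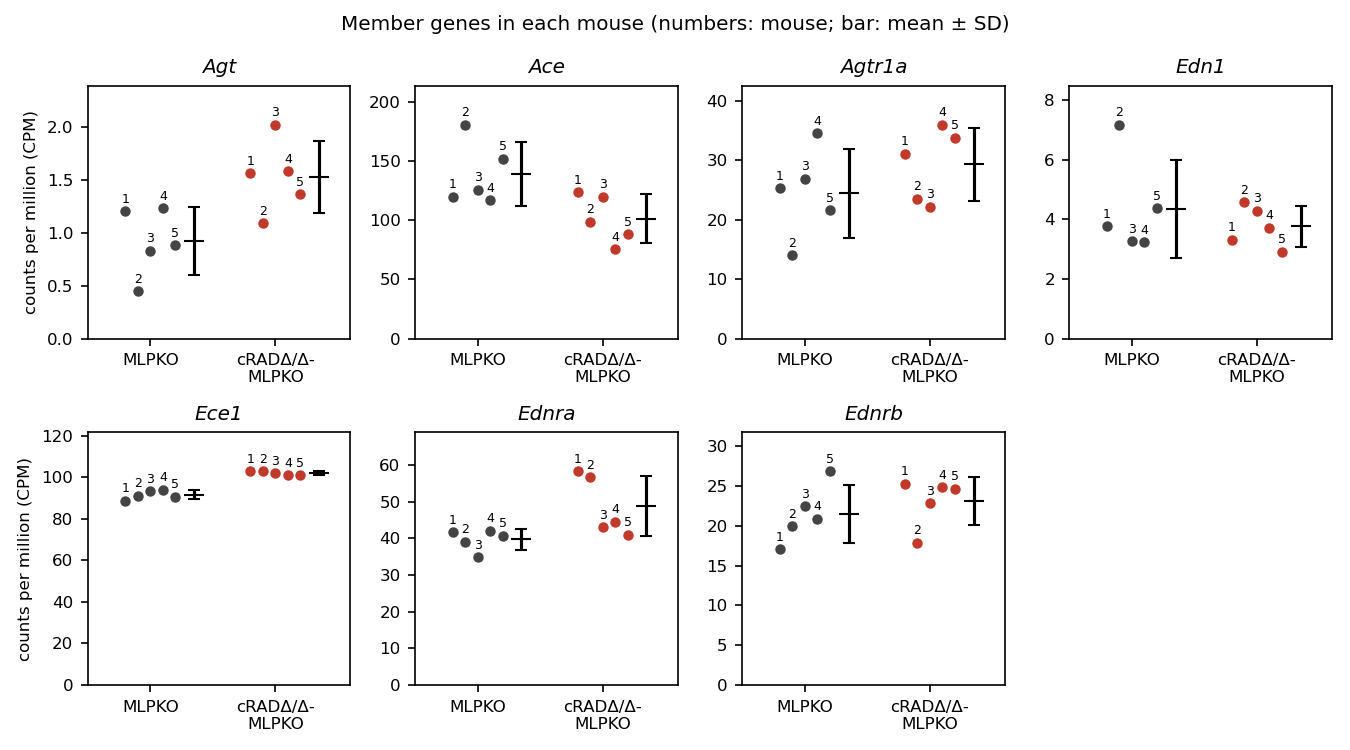
Normalised count (CPM) of each gene (y axis, from 0) in the 5 MLPKO and 5 cRADΔ/Δ-MLPKO mice, with the mouse number over each point and the mean ± SD as a bar. The groups are apart for Ece1 and overlap for the other 6 genes, and MLPKO mouse 2 is the highest of its group for Ace and Edn1 and the lowest for Agt and Agtr1a.

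Agt, on chromosome 8 (GRCm39, 125279301 to 125296716, minus strand), encodes the precursor of all angiotensins. In MLPKO mice 1 to 5 its CPM were 1.20, 0.444, 0.829, 1.23 and 0.882, and in cRADΔ/Δ-MLPKO mice 1 to 5 they were 1.56, 1.09, 2.02, 1.58 and 1.36. Of the cRADΔ/Δ-MLPKO mice 4 lay above every MLPKO mouse and mouse 2 lay within their range. The means were 0.917 ± 0.32 and 1.52 ± 0.342 (SD, n = 5 each), a log2 fold change of 0.72 (SE 0.27, 95% interval 0.12 to 1.32) that did not pass (edgeR adjusted p = 0.154). The values rest on 14 to 52 and 50 to 74 reads per mouse, and without MLPKO mouse 2 the log2 fold change was 0.56. Of the exon bases of Agt, 30.8% also belong to exons of Capn9 or Cog2 on the other strand. The strand setting of the counting is not given in the sources used here, so whether reads of these genes entered the count of Agt is not known.

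Ace, on chromosome 11 (105858469 to 105880790, plus strand), had the lowest log2 fold change of the 7. Its enzyme makes angiotensin II and degrades bradykinin. Its CPM were 120, 181, 126, 117 and 152 in MLPKO mice 1 to 5, and 124, 98.9, 120, 75.4 and 88.5 in cRADΔ/Δ-MLPKO mice 1 to 5. Mice 2, 4 and 5 of cRADΔ/Δ-MLPKO lay below every MLPKO mouse, while mice 1 and 3 lay within their range. The means were 139 ± 27.2 and 101 ± 20.7, so the level was 72.9% of that in MLPKO (log2 fold change -0.46, SE 0.15, 95% interval -0.79 to -0.12). The difference did not pass with edgeR (adjusted p = 0.117) and passed with DESeq2 (adjusted p = 0.0397). Without MLPKO mouse 2, the highest of all mice, the log2 fold change was -0.34. The summed level of 9 endothelial markers (Pecam1, Cdh5, Kdr and others) lay the other way. It was 792 to 915 CPM in MLPKO and 938 to 1067 in cRADΔ/Δ-MLPKO, without overlap. Of the 9, 8 had higher values and Vwf a lower one (log2 fold change -0.13), and only Tek was called, higher. The 4 endocardial markers (Npr3, Plvap, Cytl1 and Nfatc1) summed to 72.8 to 145 and 64.1 to 83.8 CPM. They did not move as a group: Npr3 (log2 fold change -0.57) and Plvap (-0.45) were lower, Cytl1 (0.36) and Nfatc1 (0.07) higher. None of the 4 was called by edgeR. The part of endothelial or endocardial cells in the Ace values was not tested. Of the exon bases of Ace, 17% lie opposite a predicted gene, Gm11651.

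Agtr1a, on chromosome 13 (30518942 to 30566850, plus strand), is the main angiotensin II receptor of the rodent heart and vessels. Its CPM were 25.3, 14, 26.9, 34.5 and 21.6 in MLPKO mice 1 to 5, and 31.1, 23.5, 22.2, 36 and 33.8 in cRADΔ/Δ-MLPKO mice 1 to 5. The groups overlapped over most of their range, and MLPKO mouse 2 was the lowest of all. The means were 24.5 ± 7.5 and 29.3 ± 6.16, with a log2 fold change of 0.26 whose 95% interval, -0.20 to 0.72, spans no difference (edgeR adjusted p = 0.512). It was 0.12 without MLPKO mouse 2 and 0.41 without MLPKO mouse 4.

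Edn1, on chromosome 13 (42446301 to 42461466, plus strand), was the least abundant gene of the endothelin members. Its CPM were 3.77, 7.19, 3.26, 3.23 and 4.39 in MLPKO mice 1 to 5, and 3.32, 4.57, 4.29, 3.72 and 2.92 in cRADΔ/Δ-MLPKO mice 1 to 5. Leaving MLPKO mouse 2 aside, the genotypes covered nearly the same range. The means were 4.37 ± 1.65 and 3.76 ± 0.679, a log2 fold change of -0.21 (95% interval -0.70 to 0.29, edgeR adjusted p = 0.647). Without MLPKO mouse 2 it was 0.04, so the sign rested on that mouse. The share of its exon bases that lie opposite predicted genes was 22.5%.

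Ece1, on chromosome 4 (137589530 to 137692542, plus strand), was the member that separated the genotypes. Its CPM were 88.7, 91.2, 93.2, 94.1 and 90.6 in MLPKO mice 1 to 5, and 103, 103, 102, 101 and 101 in cRADΔ/Δ-MLPKO mice 1 to 5. Every cRADΔ/Δ-MLPKO mouse lay above every MLPKO mouse, although the difference was small, 91.5 ± 2.16 against 102 ± 1.05 (log2 fold change 0.16, SE 0.04, 95% interval 0.06 to 0.25). It did not pass with edgeR (adjusted p = 0.0692). It passed with DESeq2 (adjusted p = 0.00347) and with edgeR scaled by upper quartile factors (adjusted p = 0.0482), a setting in which 2.82% of genes passed. The spread of Ece1 within genotypes, an SD of 0.03 on the log2 scale, ranked 1 of 13453, where 1 is the smallest, a rank looked up after its values were seen. No exon base of Ece1 is shared with another gene. The endothelial marker sum, which did not overlap between the genotypes either, lay higher as Ece1 did, and its part in the difference was not tested.

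Ednra, on chromosome 8 (78386590 to 78451552, minus strand), encodes the endothelin receptor that constricts vessels. Its CPM were 41.7, 39.1, 34.9, 42.1 and 40.8 in MLPKO mice 1 to 5, and 58.4, 56.7, 43, 44.6 and 41 in cRADΔ/Δ-MLPKO mice 1 to 5. Mice 1 and 2 of cRADΔ/Δ-MLPKO stood well above the rest, mice 3 and 4 lay just above the highest MLPKO mouse, and mouse 5 lay within the MLPKO range. The means were 39.7 ± 2.91 and 48.7 ± 8.17 (log2 fold change 0.29, SE 0.11, 95% interval 0.06 to 0.52), and the difference did not pass (edgeR adjusted p = 0.131). The summed level of mural cell markers also lay higher. Over 10 genes of pericytes and smooth muscle, 9 of them tested, it was 897 to 1123 CPM in MLPKO and 1149 to 1319 in cRADΔ/Δ-MLPKO. Rgs5 and Acta2 were called higher. They also rose most in CPM, from means of 330 to 447 and of 66.3 to 156, so the sum rests largely on these 2. The 9 tested genes did not move as a group: Pdgfrb (log2 fold change -0.01) and Myh11 (0.01) were near 0, and Cspg4 had -0.74 (edgeR adjusted p = 0.151). The part of these cells in the Ednra values was not tested. Of the exon bases of Ednra, 29.7% lie opposite the predicted genes 4933431K23Rik and Gm45714.

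Ednrb, on chromosome 14 (104052053 to 104081900, minus strand), encodes the receptor that also clears endothelin and acts on endothelium. Its CPM were 17.1, 20, 22.5, 20.9 and 26.9 in MLPKO mice 1 to 5, and 25.3, 17.9, 22.9, 24.9 and 24.7 in cRADΔ/Δ-MLPKO mice 1 to 5. All cRADΔ/Δ-MLPKO values lay within the MLPKO range. The means were 21.5 ± 3.62 and 23.2 ± 3.06 (log2 fold change 0.11, 95% interval -0.16 to 0.38, edgeR adjusted p = 0.667). The log2 fold change ran from 0.04 without MLPKO mouse 1 to 0.20 without MLPKO mouse 5.

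**Figure D2:**
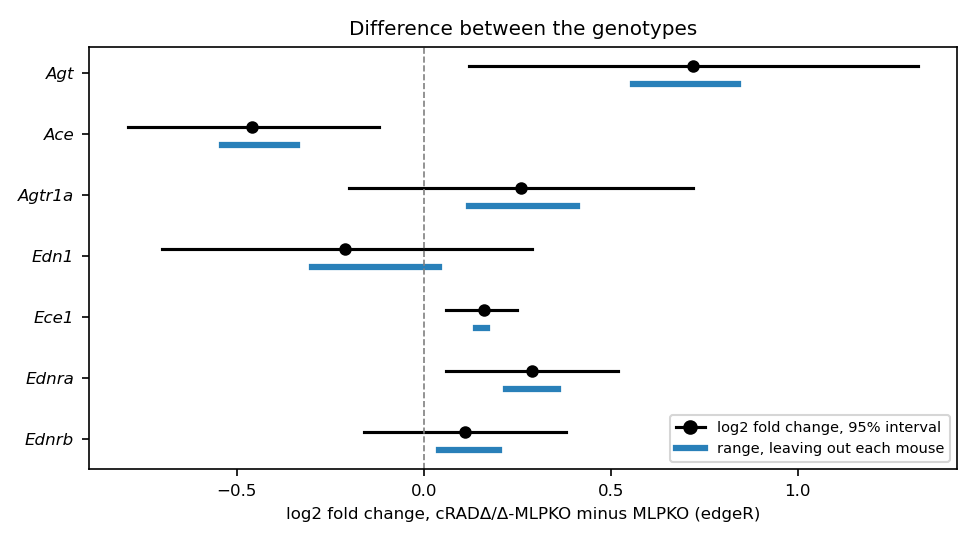
Log2 fold change of each gene between the genotypes (x axis, positive is higher in cRADΔ/Δ-MLPKO), with its 95% interval in black and in blue the range of values when each mouse was left out. The blue range crosses 0 for Edn1, from -0.30 to 0.04, and for no other gene.

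Levels can be compared between genes only per length, here in RPKM, the CPM divided by the kilobases of exon, over the 10 mice. In that order Ace came first at 21.5 ± 5.41 RPKM (SD, n = 10), followed by Ece1 at 14.5 ± 0.858, Agtr1a at 5.83 ± 1.51, Ednrb at 4.96 ± 0.731, Ednra at 4.91 ± 0.831, Edn1 at 1.48 ± 0.449 and Agt at 0.148 ± 0.054. Among the 7 genes, the converting enzymes thus stood above the receptors, and the receptors above the precursors, by this measure. The exon length joins the exons of all annotated transcripts of a gene. It was 8257 bases over 12 transcripts for Agt and 9005 bases over 3 for Ednra. Where the heart uses shorter transcripts, RPKM understates the level, and which transcripts it uses was not tested. The order therefore depends on these lengths. The ranges of neighbours overlapped for Agtr1a and Ednrb (Agtr1a above in 7 of 10 mice) and for Ednrb and Ednra (Ednrb above in 6 of 10), which did not differ beyond their spread. Ace was above Ece1 in 9 of 10 mice, and their ranges overlapped through the cRADΔ/Δ-MLPKO mice, whereas in MLPKO the lowest Ace value, 20.9 RPKM, was above the highest of Ece1, 14.1. Edn3, which encodes another endothelin peptide and is not among the 7, stood at 6.43 RPKM (3.43 to 10.9 over the mice). Its mean was above that of Edn1 and also above those of the 3 receptors, so the order of precursors below receptors does not extend to it.

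**Figure D3:**
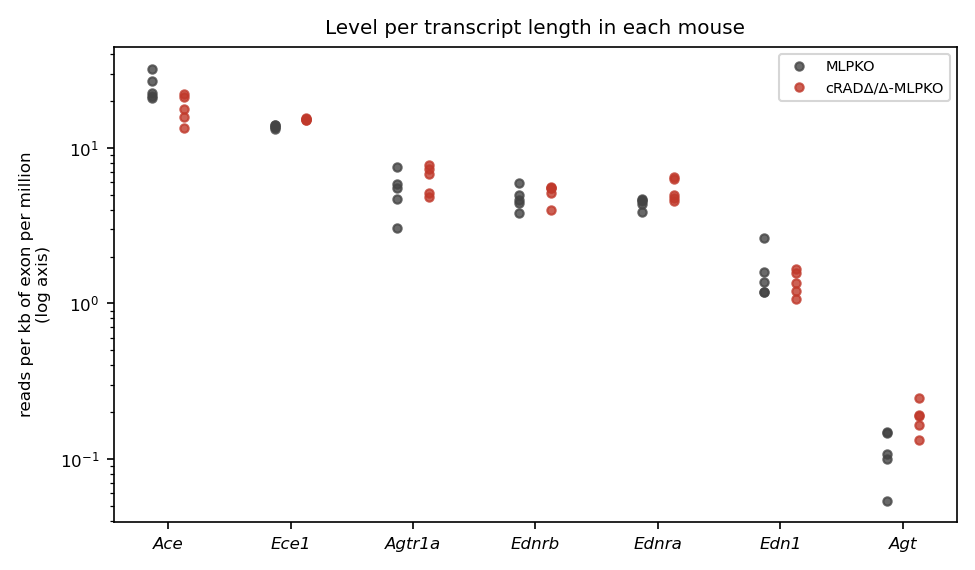
Level of each gene per length of exon (y axis, RPKM on a log axis) in the 5 MLPKO and 5 cRADΔ/Δ-MLPKO mice, ordered by the mean over all mice. Ace and Ece1 lie at the top, the 3 receptors share a range below them, and Edn1 and Agt follow without overlap.

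Ratios of levels per length give the balance within each mouse, as a description. Their size depends on the same exon lengths, while the comparison of a ratio between the genotypes does not. Ednra to Ednrb was 0.947 ± 0.191 in MLPKO and 1.08 ± 0.305 in cRADΔ/Δ-MLPKO, and only mouse 2 of the latter, at 1.58, lay above every MLPKO mouse. Edn1 to Ece1 was 0.116 ± 0.0445 and 0.0895 ± 0.0158. Each ratio overlapped between the genotypes.

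The members varied together in part. With the mean of each genotype taken out, Pearson's r over the 10 mice was -0.92 for Agtr1a and Edn1 (Spearman's rho -0.85) and -0.77 for Ace and Agtr1a (rho -0.79), and both pairs stayed negative without MLPKO mouse 2, at -0.82 and -0.65. The correlation of Agt with Edn1 did not: it was -0.67 with all mice and -0.09 without MLPKO mouse 2. That of Agt with Agtr1a likewise went from 0.64 to 0.17. These are 4 of the 21 pairs, all points share the scaling of their library, and no test was made of them. The genes most like each member by the same measure were Cep126, Gtpbp10 and Cadm3 for Agt (r = 0.957 or more), Npdc1, Wipf1 and Svep1 for Ace (0.974 or more), Pcnt, Ghr and Dusp18 for Agtr1a (0.957 or more), and P2ry2, Ganab and Wdfy1 for Edn1 (0.966 or more). They were Sdhaf3, Ecm2 and Fam50a for Ece1 (0.932 or more), Fchsd2, Slc39a9 and Bbs4 for Ednra (0.886 or more), and Hps3, Snd1 and Xpnpep1 for Ednrb (0.916 or more). With 13453 genes and 10 mice, high values arise in any search of this kind.

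**Figure D4:**
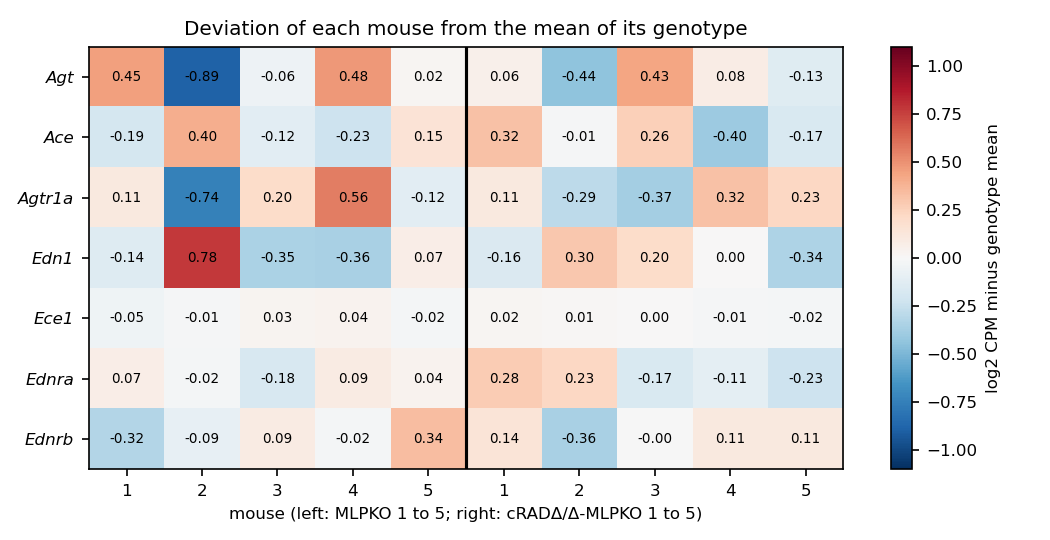
Difference of log2 CPM from the mean of the genotype for each gene (rows) and mouse (columns), printed in each cell. MLPKO mouse 2 is the farthest from its group mean for Agt (-0.89), Agtr1a (-0.74), Edn1 (0.78) and Ace (0.40), and Ece1 varies least.

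The other genes of the angiotensin system had no difference called by edgeR. Of 15 other enzymes that form or cleave angiotensins, 12 were tested, and 0 were called higher or lower by edgeR. At an unadjusted p under 0.05 there were 3, where 21.6% of all tested genes passed. Ren1, which encodes renin, had 0 counts in every mouse. Cma1, a mast cell chymase, was at 0.62 ± 0.261 CPM in MLPKO and 0.635 ± 0.333 in cRADΔ/Δ-MLPKO (edgeR adjusted p = 0.975). Of 10 other receptors and receptor partners, 7 were tested and 0 were called (2 at an unadjusted p under 0.05, beside the same 21.6%). The second type 1 receptor gene, Agtr1b, had 0 counts in every mouse, and Agtr2, the type 2 receptor, had 2 at most. Atp6ap2, the prorenin receptor, was at 18.5 ± 0.965 and 21.5 ± 1.38 CPM without overlap between the genotypes (log2 fold change 0.22), which did not pass with edgeR (adjusted p = 0.0795) and passed with DESeq2 (adjusted p = 0.0353). Mas1, the receptor of angiotensin 1-7, had a log2 fold change of 0.75 (edgeR adjusted p = 0.247). It rests on few reads, 12 to 24 per MLPKO mouse and 15 to 51 per cRADΔ/Δ-MLPKO mouse. Agtrap, which encodes a protein that binds and internalizes the type 1 receptor, had a log2 fold change of -0.14 (edgeR adjusted p = 0.349), or -0.08 without MLPKO mouse 4.

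Most genes of the kinins, which Ace degrades, and most other endothelin genes had too few counts to be tested. Of 6 kinin genes only Bdkrb2, the constitutive bradykinin receptor, was tested (log2 fold change -0.49, edgeR adjusted p = 0.631). Its log2 fold change was -0.19 without cRADΔ/Δ-MLPKO mouse 4 and -0.83 without cRADΔ/Δ-MLPKO mouse 3. These values rest on 14 to 32 reads per MLPKO mouse and 2 to 26 per cRADΔ/Δ-MLPKO mouse. Of 5 other endothelin ligands and converting enzymes only Edn3 was tested. It was at 31.1 ± 12.7 CPM in MLPKO and 26 ± 10.2 in cRADΔ/Δ-MLPKO (log2 fold change -0.26, edgeR adjusted p = 0.675), and the log2 fold change ran from -0.49 without cRADΔ/Δ-MLPKO mouse 1 to -0.05 without MLPKO mouse 5. Edn2 had 2 counts at most in a mouse and Ece2 had 5 at most.

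Among the genes through which these receptors signal, 27 of 27 were tested, 1 rose and 1 fell, where 2.74% of all tested genes were called. Rgs5, a regulator that shortens G protein signals and marks pericytes, rose from 330 ± 36.4 to 447 ± 47.5 CPM (log2 fold change 0.44, edgeR adjusted p = 0.0319). Rock2, a kinase below RhoA, fell from 292 ± 63.6 to 198 ± 4.21 CPM (log2 fold change -0.56, edgeR adjusted p = 0.0343). Of the 10 fits that left out a mouse, Rgs5 lost its call in 8 and Rock2 in 7, with edgeR adjusted p up to 0.0764 and 0.0843, both without MLPKO mouse 5. Rgs2, which acts on Gq, was at 12.5 ± 3.16 and 23.6 ± 7.05 CPM (log2 fold change 0.92), outside the threshold with edgeR (adjusted p = 0.0544) and past it with DESeq2 (adjusted p = 0.00199). With edgeR it also passed without cRADΔ/Δ-MLPKO mouse 2 (adjusted p = 0.047) and without MLPKO mouse 4 (adjusted p = 0.0377). Gnaq, the Gq subunit itself, had a log2 fold change of 0.18 (edgeR adjusted p = 0.175).

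Of 18 genes known to be induced by angiotensin II or endothelin-1, 17 were tested, 3 fell and 0 rose, where 1.80% of all tested genes fell and 0.944% rose, and the median log2 fold change was -0.88. The 3 were Myh7, the slow myosin heavy chain (log2 fold change -1.23, edgeR adjusted p = 0.0104), Ankrd1, a stress-responsive muscle gene (-1.27, edgeR adjusted p = 0.0463), and Acta1, skeletal actin (-1.52, edgeR adjusted p = 0.0492). All 3 are cardiomyocyte genes that other stimuli of the heart also induce. The list was chosen with earlier results of these data known. From these same libraries, the paper reported Acta1, Myh7, Ankrd1, Nppa and Nppb as lowered, and each of them is in the list. The calls and the median of the list therefore cannot be weighed against all tested genes. Myh7 kept its call in each of the 10 fits that left out a mouse, while Acta1 lost it in 8 and Ankrd1 in 7, with edgeR adjusted p up to 0.12 and 0.111, both without cRADΔ/Δ-MLPKO mouse 5. The 6 cardiomyocyte markers summed to 49916 to 58435 CPM in MLPKO and 36816 to 48830 in cRADΔ/Δ-MLPKO, without overlap. Myh6, at a mean of 36497 and 29887 CPM, made up most of this sum. All 6 had lower values, but Ryr2 (log2 fold change -0.13) and Pln (-0.11) differed little. Only Tnnt2 was called lower, and the paper also names it among the lowered transcripts. The part of these markers in the values of the list was not tested. Ccn2, a matrix-associated growth factor, had -1.29 (edgeR adjusted p = 0.278), a value carried by MLPKO mouse 2: without it the log2 fold change was -0.19, and it was -0.57 with limma-voom. Of 12 vasodilator and endothelial counterparts, all tested, 0 were called by edgeR (6 at an unadjusted p under 0.05, where 21.6% of all tested genes passed). Their median log2 fold change was 0.30, and Nos3, endothelial nitric oxide synthase, had 0.22 (edgeR adjusted p = 0.246). The endothelial marker sum given with Ace was higher in every cRADΔ/Δ-MLPKO mouse, with 8 of its 9 genes higher, and its part in these values was not tested.

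**Figure D5:**
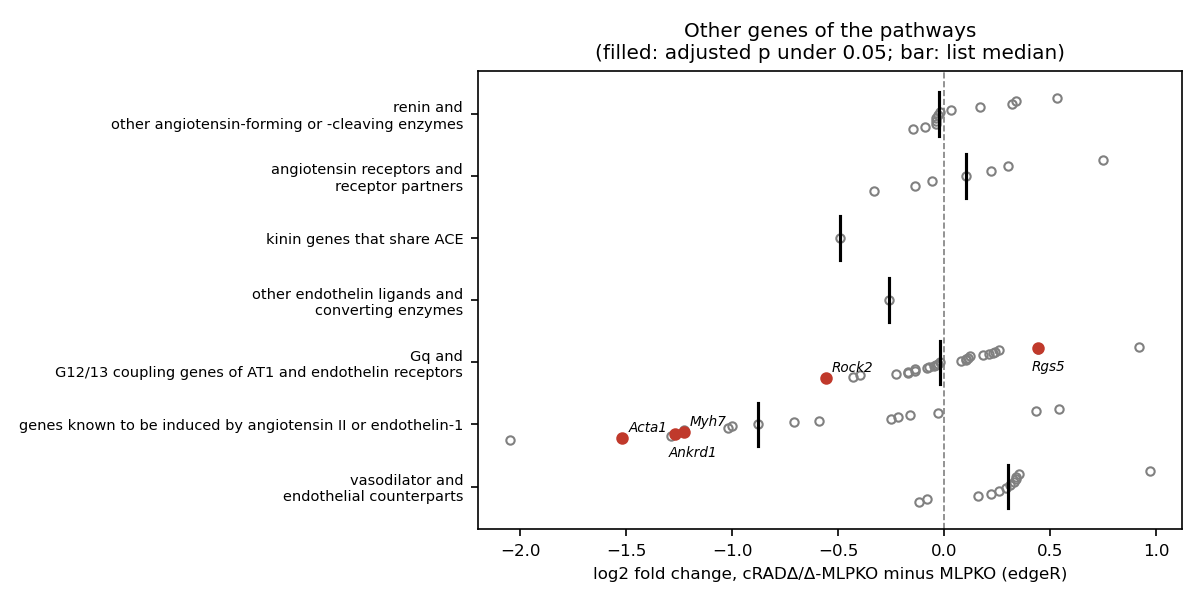
Log2 fold change of the other tested genes of each list (x axis, positive is higher in cRADΔ/Δ-MLPKO), with filled red points for genes at an edgeR adjusted p under 0.05 and a bar at the median of the list. Rgs5 is the only filled point above 0, and Rock2, Myh7, Ankrd1 and Acta1 are the filled points below.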

How the data were processed

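Polyadenylated RNA of 10 mice was sequenced. Per the submitters' processing notes, STAR, featureCounts and GRCm39 were used, and the values the authors deposited are raw counts per gene, not normalized. Versions, strand and pair settings are not given in the sources used here. The groups were taken from the labels.

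The 7 genes, the gene lists and the tests were chosen with earlier results of these data known. The filter of the study was applied: a gene needed over 10 counts in 6 or more of the 10 mice, and Gm and Rik genes were dropped, which left 13453. Genotypes were compared with edgeR 4.0.16 (TMM, quasi-likelihood test, genotype as the only term) in R 4.3.3. Alternatives were DESeq2 1.42.0, the tool of the study, limma-voom (limma 3.58.1), other scalings and filters, and leaving out mice. Scripts were tested on simulated data. CPM are counts over the TMM-scaled library size, times 1e6, and the prior count for log2 CPM was 2. Genes were placed with GENCODE M39. P-values measure the spread between mice.

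The genes named are the 7 members, pathway genes at an edgeR adjusted p under 0.05, a fixed list of pathway genes, Rrad and Csrp3, and for each member the 3 genes with the highest r. The motif search used 2 start annotations, and the RefSeq one was added after the GENCODE matches were seen. Mouse numbers are shared by the genotypes but belong to different animals, so they were no block. Ren2 was not analysed here, and some items that the rule covers are not reported here.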

Additional observations from a re-analysis of the deposited data

How the results depend on the processing

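The count of 369 genes became 1298 with DESeq2 (60.6% of calls lower, against 65.6%). Of the members, 0 were called in the comparison as given, 1 with upper quartile factors (Ece1) and 2 with DESeq2 (Ace and Ece1). Upper quartile factors moved the share of calls that were lower to 53.9% and the median of all genes to a log2 fold change of 0.04. Leaving out each mouse gave 47 (without MLPKO mouse 5) to 826 genes (without MLPKO mouse 4) and 0 members each time, with the smallest adjusted p of edgeR for Ece1, 0.064. The sign turned for 2 named genes, each far from the threshold. Leaving out each mouse, the log2 fold change of Edn1 ran from -0.30 to 0.04 (without MLPKO mouse 2). For Cma1 it was -4.3e-05 with the replicate block, -0.02 with limma-voom, -0.30 without cRADΔ/Δ-MLPKO mouse 3, -0.16 without MLPKO mouse 1 and -0.05 without MLPKO mouse 4, and at most 0.24 with another mouse left out. The cause was not tested. Acta1 lost its call in 4 of 9 other settings (edgeR adjusted p up to 0.0722, with robust dispersion) and Ankrd1 in 3 of 9, among them robust dispersion (edgeR, 0.0652) and limma-voom (0.0507).

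With the mouse number as a replicate block, 281 genes and 0 members were called, 210 of them also without it, and Rock2 and Ankrd1 missed the threshold (edgeR adjusted p = 0.0524 and 0.0515). Deviations of mice with the same number correlated at -0.0442 to 0.152. The cRADΔ/Δ-MLPKO mouse of the same number was the best match for MLPKO mice 1 and 3 and not for the others. These values show no clear pairing and cannot exclude one. Of the members, Agt rests on the fewest reads, 14 to 74 per mouse.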
